A study of Mus musculus with 2 samples.

Results

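The 36 genes described here carry out mitosis and its spindle checkpoint. They were taken by gene symbol from the 32285 genes of the deposited feature lists, and all 36 were found and had at least 10 CPM (UMIs per 1000000 UMIs of the cells) in pluripotent stem cell-like cells. By role, 6 belong to the spindle checkpoint, 8 are CDK1, its cyclins and the activators and substrates of the anaphase-promoting complex, and 6 are mitotic kinases with the chromosomal passenger complex. A further 9 are spindle motors and microtubule-binding proteins, 6 are centromere and outer kinetochore proteins, and 1, Top2a, acts on chromosome structure.

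The cells were embryonic stem cells of the inbred mouse strain C3H/HeSn-Paf/J, and the title of the series concerns the part of X dosage in the development of aneuploidy, a wrong chromosome number. The 9 lines, 3 each with XX, XO and XY sex chromosomes, had been mixed and were grown in serum and LIF on irradiated mouse embryonic fibroblasts, the feeders, at both times. Time 1 was an early passage and time 2 came after 10 more passages. Each time is 1 library of single cells with no replicate, and the cells were not linked to lines here, so a change within cells and a change in the mixture of lines cannot be told apart. No test between groups was possible. Intervals are 95% intervals that cover counting error only, and a difference beyond them is not shown to exceed the spread between cultures.

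Filtering left 23145 cells of time 1, with 43187 UMIs in the median cell, and 25225 cells of time 2, with 50072. A UMI is 1 captured transcript. The libraries shared 162 cell barcodes. Of 17 clusters, the 4 named pluripotent stem cell-like (led by Rhox9, Jam2, Nanos3 and Gm46332) held 8579 cells at time 1 and 19300 at time 2. All 12 pluripotency markers of the list were detected in these clusters, but also in each of the other 13, so detection alone does not set these 4 apart. The summed level of the 12 was 6679 to 13028 CPM in the 4. Clusters not counted as pluripotent here also lay within that range: Spry2-led (8269 CPM), Rpgrip1-led (8731 CPM), Card19-led (8475 CPM) and two-cell-like (10261 CPM). In the pluripotent cells Pou5f1 stood at 717 and 791 CPM. Of these cells the Rhox9-led cluster held 7239 at time 1 and 751 at time 2, and the Gm46332-led cluster 89 and 11896, so the pluripotent cells of the 2 times came for the most part from different clusters.

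As background, cells enter mitosis when CDK1 bound to cyclin B is activated, and Aurora and Polo-like kinases then build the spindle. Kinetochores that are not attached to microtubules hold the checkpoint proteins MAD2, BUB1, BUBR1 (Bub1b), BUB3 and TTK, which keep CDC20 from activating the anaphase-promoting complex. When all are attached, that complex marks securin (Pttg1) and cyclin B for destruction, separase (Espl1) cuts cohesin, and the chromatids part. Embryonic stem cells cycle fast with short gap phases, and gain of a whole chromosome is the error that this checkpoint limits.

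Many mitotic genes are known to be switched on late in the cycle through CCAAT boxes, bound by NF-Y, and a downstream element called CHR, with the letters TTTGAA or TTCGAA. RefSeq promoter windows (build GRCm38.p6, 250 bases before to 50 after the start) were matched by symbol for 30 of the 36 genes. TTTGAA, on either strand, occurred in 22 of the 30 windows (73.3%) and in 18.1% of all 27025 windows. CCAAT, on either strand, occurred in 22 of 30, against 37.9% of all windows, and both motifs together in 19 of 30 (63.3%), against 7.12%. TTCGAA, which reads the same on both strands, occurred in 3 of 30 windows and in 1.57% of all. A match is a description of the letters and not a bound site. The 150 bases before the start are shown for 5 genes that hold both motifs there, from 5′ to 3′ on the gene's strand, because they show a CCAAT upstream of a TTTGAA close to the start. They were chosen after the matches were seen, and the arrangement is not that of the whole list: the TTTGAA of Cenpf, Plk1 and Aurka, for example, lies after the start, at 3, 31 and 33. Capitals mark the motifs, with TTCAAA and ATTGG for matches on the other strand.
Cdc20 (chr4:118437344-118437493, minus strand): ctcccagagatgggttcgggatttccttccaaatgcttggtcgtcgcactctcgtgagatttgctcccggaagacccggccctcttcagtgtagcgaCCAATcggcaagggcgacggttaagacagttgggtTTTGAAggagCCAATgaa
Ube2c (chr2:164769779-164769928, plus strand): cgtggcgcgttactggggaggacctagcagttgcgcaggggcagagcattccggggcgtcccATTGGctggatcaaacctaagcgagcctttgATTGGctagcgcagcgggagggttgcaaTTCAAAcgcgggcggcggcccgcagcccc
Cdk1 (chr10:69352913-69353062, minus strand): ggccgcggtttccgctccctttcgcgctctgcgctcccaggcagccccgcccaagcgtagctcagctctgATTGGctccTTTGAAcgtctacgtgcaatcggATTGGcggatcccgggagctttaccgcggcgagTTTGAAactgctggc
Kif11 (chr19:37376232-37376381, plus strand): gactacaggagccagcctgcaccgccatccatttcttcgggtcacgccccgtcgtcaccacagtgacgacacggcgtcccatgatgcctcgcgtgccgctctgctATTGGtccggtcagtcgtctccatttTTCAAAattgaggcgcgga
Top2a (chr11:99024190-99024339, minus strand): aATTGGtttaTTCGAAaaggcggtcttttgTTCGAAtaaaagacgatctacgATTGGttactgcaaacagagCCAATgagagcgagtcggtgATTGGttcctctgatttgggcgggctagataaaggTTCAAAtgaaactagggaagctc
Positions are those of the leftmost base of a match, with -1 the last base before the start. In the Cdc20 sequence a CCAAT lies at -53 and the TTTGAA at -18. The CCAAT and TTTGAA matches of Ube2c nearest the start lie at -57 and -29, those of Kif11 at -45 and -19, those of Cdk1 at -48 and -15 and those of Top2a at -58 and -23. Of the genes whose levels are described below, Nusap1, Pttg1, Mad2l1, Birc5 and Nuf2 held none of the 3 motifs in their windows.

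The summed level of the 36 genes (their UMIs per 10000 UMIs of the cells) was 48.4 in pluripotent stem cell-like cells of time 1 (interval 48.38 to 48.5) and 51.6 at time 2 (51.6 to 51.7). At 10000 UMIs per cell, the middle 50% of cells held between 33 and 58 UMIs of the 36 genes at time 1, and between 39 and 60 at time 2. Most of the other states lay close to these levels. At time 1 the Spry2-led cluster (4051 cells, and 26 at time 2) stood at 44.4, and the Rpgrip1-led cluster (2257 cells, and 1 at time 2) at 42.0. The primed epiblast-like cluster, led by Fgf5, stood at 47.0 and 49.4, and the two-cell-like cluster at 46.8 and 51.7. Mesendoderm-like cells, led by Lhx1 and Gsc, stood at 42.0 and 42.2. The S100a4-led cluster was lower, at 32.4 and 37.2, and the 56 macrophage-like cells of time 1 at 30.1. The 12 pluripotency markers summed to 5693 CPM in the S100a4-led and 5894 CPM in the macrophage-like cluster, beside 1103 CPM in fibroblast-like cells. The levels of these 2 clusters are thus not read as those of macrophages or another single cell type. The part of RNA from pluripotent cells in them was not tested.

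**Figure D1:**
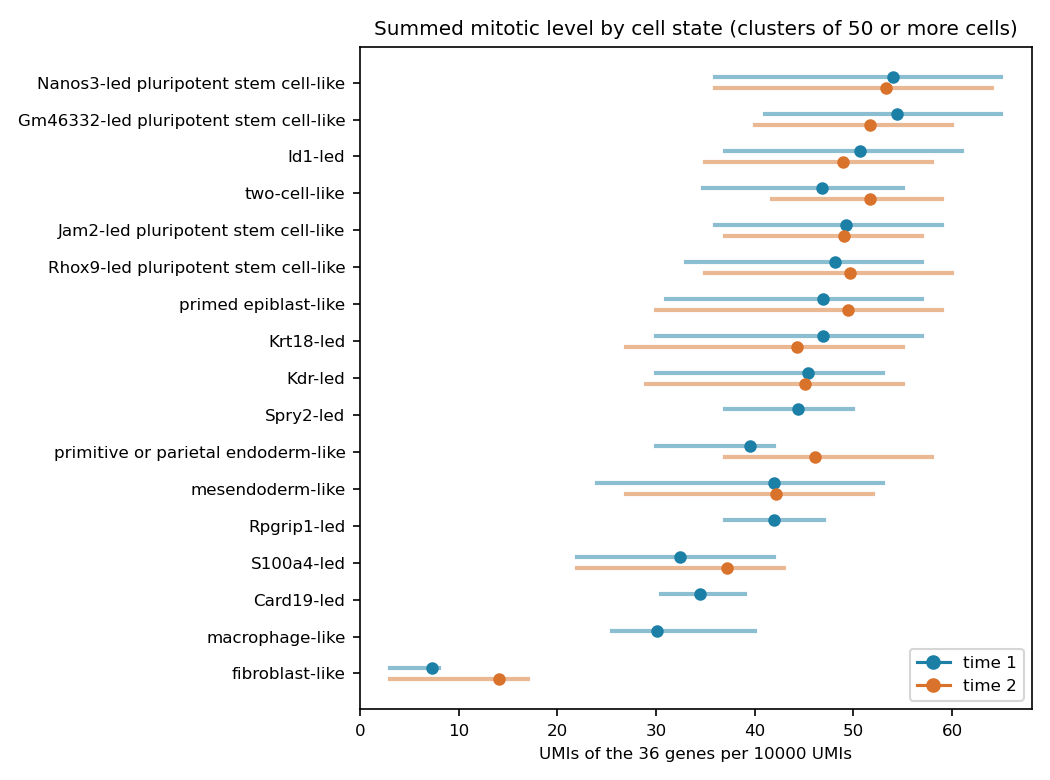
UMIs of the 36 genes per 10000 UMIs (x axis) in each cluster with at least 50 cells (y axis), for time 1 and time 2. Points are summed counts and bars span the middle 50% of cells at 10000 UMIs; fibroblast-like cells, at 7.25 and 14.1, lie apart from all other clusters.

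Fibroblast-like cells, named from Col1a2, Col1a1 and other fibroblast markers, had by far the lowest summed level of the clusters with at least 50 cells. It was 7.25 at time 1 (162 cells, interval 7.10 to 7.41) and 14.1 at time 2 (353 cells, 13.95 to 14.2), or 15.0% and 27.3% of the pluripotent level. The log2 ratio was -2.74 at time 1 and -1.87 at time 2, and with doublets kept -2.10 and -1.69. The labels place irradiated fibroblast feeders in both cultures. At time 1, 34 of the 36 genes were at least 4 times lower than in pluripotent stem cell-like cells, against 9.25% of all genes tested. At time 2 this held for 15 of 36, against 5.24% of all genes. The median log2 ratio of the 36 was -2.81 at time 1 and -1.90 at time 2, beside -0.0035 and 0.020 for all genes tested.

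The size of this difference varied by gene. Bub1, the kinase that recruits checkpoint proteins to kinetochores, was at 7.22 CPM in fibroblast-like cells of time 1 and at 90.8 in pluripotent stem cell-like cells, 7.95% of that level. Top2a, the topoisomerase that untangles sister chromatids, was at 55.0 against 514 CPM at time 1 and at 91.0 against 574 at time 2. The other end of the range was held by Bub3 and securin. Bub3, a checkpoint protein that also has roles outside mitosis, kept 52.9% of its pluripotent level at time 1 and 50.7% at time 2. Pttg1 kept 45.8% and 49.2%. No other gene of the list was above 25% at time 1. Pluripotency markers moved with these levels: in fibroblast-like cells Pou5f1 was at 9.49% of its pluripotent level at time 1 and 16.6% at time 2, Dppa5a at 4.38% and 13.1%, and Sox2 at 6.05% and 12.2%. The part of free RNA or doublets in the remaining mitotic signal was not tested. The middle 50% of fibroblast-like cells held between 3 and 8 UMIs of the 36 genes at time 1, and between 3 and 17 at time 2. The median cell held 5 and 6, so it differed less between the times than the summed level did.

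Of 34 measured DNA replication genes, 27 were at least 4 times lower in fibroblast-like cells at time 1 and 17 at time 2, beside 9.25% and 5.24% of all genes. Of 17 subunits and regulators of the anaphase-promoting complex (the regulators being Fzr1, Fbxo5 and Ube2s), 2 and 1 were, shares near those of all genes. Their median log2 ratio was -0.39 and -0.25. The list of G1 cyclins and CDK inhibitors also held the kinases Cdk2, Cdk4 and Cdk6 and the genes Rb1, Rbl1 and Rbl2. Of this list, 6 of 12 measured were at least 4 times higher at time 1 and 5 of 13 at time 2. These 2 counts stand beside 14.7% and 15.1% of all genes tested. A gene was measured if it had at least 10 CPM in either of the 2 groups compared. Of this list, 11 genes had that level in pluripotent stem cell-like cells of either time, so some entered only through fibroblast-like cells. The counts of higher genes are thus set in part by that filter.

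**Figure D2:**
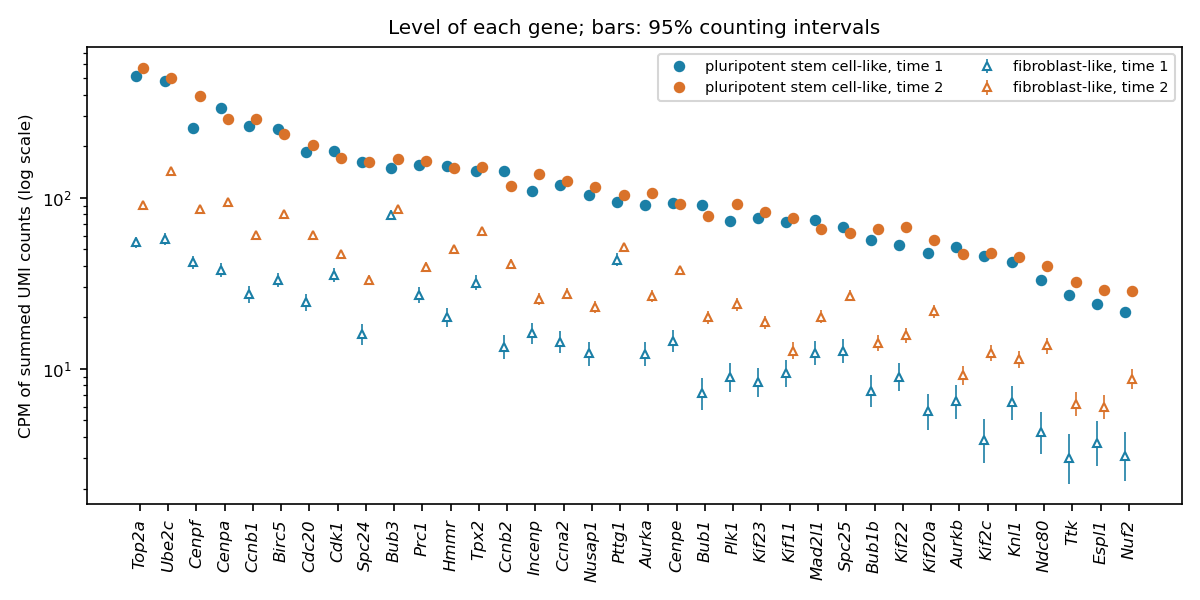
CPM of summed counts on a log axis for each of the 36 genes (x axis, ordered by level) in pluripotent stem cell-like cells (circles) and fibroblast-like cells (triangles, with 95% counting intervals) at both times. Bub3 and Pttg1 have the narrowest gap between circles and triangles.

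Within pluripotent stem cell-like cells the genes spanned from 21.6 CPM (Nuf2) to 514 CPM (Top2a) at time 1 and from 28.5 to 574, the same 2 genes, at time 2. These are levels of 3′ tags and were not divided by length. Top2a alone gave 10.6% and 11.1% of the UMIs of the list, and its 5 highest genes 38.2% and 39.6%. Ube2c, the ubiquitin-conjugating enzyme of the anaphase-promoting complex, was next at 483 and 501 CPM. At 10000 UMIs a Top2a UMI was found in 94.5% of cells of time 1 and 96.9% of time 2.

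Differences with passage were small for most of the genes. The log2 ratio of the summed level, time 2 over time 1, was 0.092 (interval 0.090 to 0.095), a factor of 1.07. Over all filtered cells, which include the Spry2-led and Rpgrip1-led clusters, it was 0.12. In pluripotent stem cell-like cells it was 0.24 with TMM scaling, which moved every gene by 0.14. It was 0.047 within the Rhox9-led cluster and -0.0080 within the Jam2-led cluster, the 2 pluripotent clusters with at least 751 cells at each time. In the other 2 the summed level was lower at time 2, at 51.7 against 54.4 in the Gm46332-led cluster (89 cells at time 1) and 53.3 against 54.0 in the Nanos3-led cluster (121 cells at time 1, with overlapping intervals). The pooled ratio thus had the opposite sign to that of 3 of the 4 clusters. The pooled ratio for the DNA replication genes was 0.32. That of the 36 genes includes Cenpf, at 256 CPM at time 1 and 395 at time 2, and is not given without it. A gene was called higher or lower here, and in the comparisons of gain and X classes, where its log2 ratio of CPM plus 1 reached 0.32 in size, a description with no test. Of the 36 genes, 5 were higher at time 2 and 0 were lower. Among 7351 genes tested, 17.3% were higher and 22.8% lower, so the share of the list that was higher (5 of 36) was near the background. With TMM scaling 11 of the 36 were higher and 0 lower, beside 28.4% and 15.2% of all genes, so the higher share was again near the background. With a pseudocount of 5 CPM 3 were higher, beside 14.9% of all genes, and with the primed epiblast-like cluster added 3, beside 17.4%. The median log2 ratio of the 36 was 0.10, beside -0.027 for all genes, and 25 of the 36 were above 0, beside 47.1% of all genes.

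The 5 genes were 2 kinetochore genes, 2 genes of mitotic kinases and their complex, and 1 motor. Cenpf, a large protein of the outer kinetochore, had 256 CPM at time 1 against 395 at time 2, which is 0.63 on the log2 scale (interval 0.62 to 0.64). Nuf2, a subunit of the NDC80 complex that grips microtubules, stood at 21.6 and 28.5 CPM, a log2 ratio of 0.38 (0.37 to 0.43). Both lie on chromosome 1, the chromosome most often gained at time 2, and are taken up again below. Kif22, a motor that pushes chromosome arms, went from 52.7 to 67.2 CPM (log2 0.34). Plk1, the Polo-like kinase, went from 73.1 to 91.7 CPM (log2 0.3228) and Incenp, the scaffold of the passenger complex, from 110 to 138 CPM (log2 0.3228). Both only just passed the cutoff, which was 0.3219 before rounding. Ndc80 itself, partner of Nuf2 and encoded on chromosome 17, stood at 32.8 and 39.7 CPM (log2 0.27), and Spc24, another subunit of that complex, at 163 and 161 (log2 -0.013). Log2 ratios were lowest for cyclin B2 (Ccnb2, 142 and 118 CPM, log2 -0.27), the centromeric histone Cenpa (336 and 288 CPM, log2 -0.22) and Bub1 (90.8 and 78.0 CPM, log2 -0.22).

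Most of the 36 genes varied together from cell to cell in both libraries. For each gene, cells were ranked by the UMIs of the other 35 genes at 10000 UMIs, and its CPM in the top 25% of cells was compared with that in the bottom 25%, again as the ratio of CPM plus 1. At time 1, 29 of the 36 genes were at least 1.5 times higher in the top 25%, beside 2.4% of all genes tested, and at time 2, 25 of 36, beside 1.31%. The median log2 ratio of the 36 was 1.03 and 0.74, beside 0.067 and 0.035 for all genes tested. The top 25% held deeper cells, with a median of 58574 UMIs at time 1 and 58064 at time 2 against 39855 and 42545 in the bottom 25%.

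The largest swings were those of single genes from several roles. By role, the median ratio was highest at both times for the mitotic kinases with the chromosomal passenger complex. At time 1 the median was lowest for the centromere and outer kinetochore genes. Nusap1, which bundles spindle microtubules, stood at 41.7 CPM in the bottom and 166 in the top 25% of time 1, a factor of 3.91, and at 59.0 and 179 at time 2, a factor of 3.01. Cenpf stood at 113 and 409 CPM at time 1 (3.60 times), and at 222 and 602 at time 2 (2.70 times). Plk1 and the kinetochore motor Cenpe followed, with factors of 3.46 and 3.33 at time 1 and 2.43 and 2.36 at time 2. Hmmr, Aurora A (Aurka), Ube2c and Prc1, which organise spindle poles, drive entry, end mitosis and bundle the midzone, had factors between 3.02 and 3.15 at time 1 and between 2.23 and 2.26 at time 2. All 9 spindle motors and microtubule-binding proteins passed 1.5 times at both times.

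A smaller set swung little. Spc24 stood at 159 CPM in the bottom and 162 in the top 25% of time 1, and at 162 and 161 at time 2. Its log2 ratio of 0.025 at time 1 had an interval of -0.0048 to 0.055. Securin (Pttg1) had a factor of 1.39 at time 1 and 1.18 at time 2. Mad2l1, the checkpoint protein MAD2, had factors of 1.32 and 1.2, Bub1 1.35 and 1.21, survivin (Birc5) 1.36 and 1.18, cyclin A2 (Ccna2) 1.39 and 1.2, and cyclin B2 1.4 and 1.27. Cyclin B1 (Ccnb1), by contrast, stood at 169 and 348 CPM at time 1 (2.05 times). Of the 6 checkpoint genes, 4 passed 1.5 times at time 1 and 3 at time 2; Bub1b, Bub3 and Knl1 did so at both, and Ttk at time 1 (1.83 and 1.48 times).

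The median ratio was larger at time 1 than at time 2 for the list and for all genes tested. Within the Rhox9-led cluster the median log2 ratio was 1.04 at time 1 and 1.07 at time 2, and within the Jam2-led cluster 0.85 and 0.72, so the larger ratio of time 1 was not seen within the Rhox9-led cluster. The Rhox9-led cluster made up 88.9% of the bottom and 82.2% of the top 25% at time 1, and 5.35% and 3.81% at time 2.

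When cells were ranked by 35 DNA replication genes instead, 33 of the 36 mitotic genes were lower in the top 25% at time 1, beside 42.7% of all genes, and 27 of 36 at time 2, beside 38.9%. The median log2 ratio was -0.32 and -0.13. The 2 genes that swung most with the mitotic list lay lowest here at time 1: Cenpf had log2 ratios of -0.81 and -0.40, and Nusap1 of -0.76 and -0.44. Spc24 (0.12), Mad2l1 (0.037) and Ccna2 (0.022) were the 3 genes above 0 at time 1. In turn, of 34 measured replication genes, 28 at time 1 and 30 at time 2 were lower in the top 25% by mitotic genes, beside 2553 of 7339 and 2757 of 6925 of all genes tested, 6 and 3 of them by at least 1.5 times, a size that 0.286% and 0.375% of all genes reached.

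**Figure D3:**
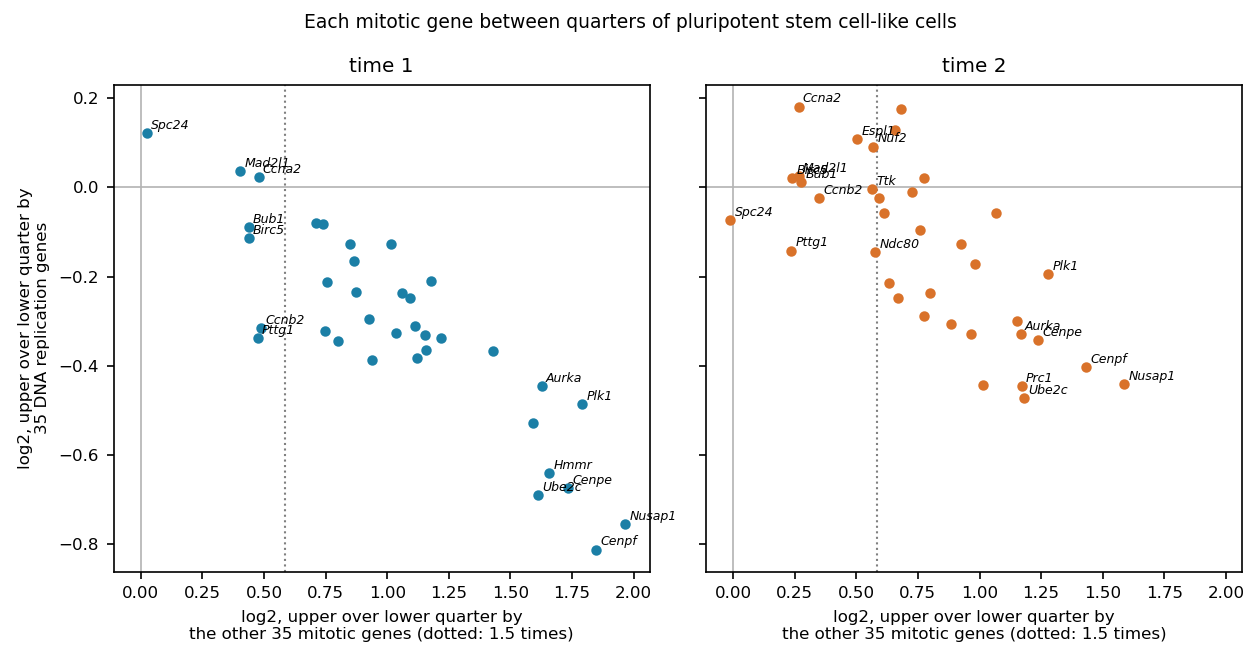
Log2 ratio of each of the 36 genes between the top and bottom 25% of pluripotent stem cell-like cells, ranked by the other 35 mitotic genes (x axis) or by 35 DNA replication genes (y axis), at time 1 (left) and time 2 (right). The dotted line marks 1.5 times; Nusap1 and Cenpf lie at the lower right and Spc24 near 0 on the x axis.

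Outside the list, the genes with the highest ratios at time 1, among genes with at least 50 CPM, included Arl6ip1, Kpna2, Cdca2, Aspm, Ccnf, Kif4, Arhgap11a, Mki67 and Kif20b, with log2 ratios from 1.22 to 1.61. Most are known mitotic genes: Aspm organises spindle poles, Cdca2 recruits a phosphatase to anaphase chromosomes, and Mki67 coats mitotic chromosomes. At time 2, Arl6ip1, Kpna2, Cdca2, Aspm, Ccnf and Mki67 were again among the highest 10, as were Fzr1, Kif18a and Smc4. The 5 lowest at time 1 were S100a13, Slbp, Ifi30, Chaf1b and Ung (log2 -1.0 to -0.65). Slbp binds histone messenger RNA, Chaf1b assembles chromatin on new DNA and Ung repairs it. At time 2 the 5 lowest were histone genes (Hist1h2ap, Hist1h2ae, Hist1h1b, Hist1h1e and Hist1h1a, log2 -1.28 to -1.05). Of the wider lists, 6 of 18 other checkpoint and kinetochore genes and 3 of 16 cohesin and condensin genes passed 1.5 times at time 1. At time 2, 4 of 19 and 1 of 16 did. Of 17 subunits and regulators of the anaphase-promoting complex, 1 passed at each time, and at time 2 it was the regulator Fzr1. Of the mitotic entry genes 3 of 8 and 2 of 7 did, and of the genes for transcription of mitotic genes 1 of 10 and 0 of 9. The shares of all genes were 2.4% at time 1 and 1.31% at time 2.

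Chromosome gains were read from the share of a cell's autosomal UMIs on a chromosome, without the 36 genes. A gain was called at 1.3 times the median of time 1 cells or more. At time 1, 7304 of the 8579 cells (85.1%) had no gain, 680 gained 8 alone and 118 gained 1 alone. At time 2, 4107 of 19300 (21.3%) had none, 4669 gained 1 alone, 2781 gained 8 alone, 3057 gained 1 and 8, and 2483 gained 1 and 14. In cells with 1 alone at time 2 the median chromosome 8 ratio was 1.21, under the threshold but above the 0.99 of cells without a gain, and it was 1.21 with 1 and 14 as well. At time 1 it was 0.95 with 1 alone. Comparisons of 1 alone at time 2 thus include a higher chromosome 8 share. The summed mitotic level at time 2 was 50.01 without a gain, 50.5 with 8 alone, 53.2 with 1 alone, 51.4 with 1 and 8, and 52.2 with 1 and 14. It was lower than without a gain in the 109 cells with 14 alone (46.7, log2 -0.10) and the 90 cells with 8 and 14 (48.4, log2 -0.048). The median chromosome 1 and 8 ratios of the cells with 14 alone were 1.24 and 1.22, against 1.07 and 0.99 without a gain. With 8 and 14 the median chromosome 1 ratio was 1.12. These classes too thus include higher shares of other chromosomes. At time 1 the summed level was 48.3 without a gain, 48.7 with 8 alone and 52.5 with 1 alone (log2 0.12, and 0.069 without Cenpf and Nuf2).

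For gain of 1 alone at time 2 the log2 ratio of the summed level was 0.089 (interval 0.086 to 0.093). It was 0.052 within the Gm46332-led cluster (3632 cells with the gain) and 0.093 within the Nanos3-led cluster (951). With Cenpf and Nuf2 left out of the sum over all cells it was 0.034. Within X-low cells, defined below, it was 0.040 with both genes kept in the sum. The summed level there was 51.7 without the gain and 53.2 with it. Cenpf stood at 334 and 474 CPM in these cells, and Nuf2 at 24.5 and 30.9. The 0.040 thus does not show that the rest of the list was higher within X-low cells. Within the Rhox9-led cluster, with 52 cells with the gain and 509 without, the log2 ratio of the summed level was -0.066 (interval -0.097 to -0.036). Its direction was thus not the same in every cluster. For 8 alone the log2 ratio was 0.013 at time 1 and 0.015 at time 2. It turned to -0.020 and -0.019 with a gain threshold of 1.4, and to -0.028 within X-low cells of time 2, so no direction can be given for it. For 1 and 8 it was 0.038, and -0.015 without Cenpf and Nuf2. Cells with and without gains also differed in X dosage: 59.3% of cells without a gain were X-high at time 2, and 2.12% of those with 1 alone.

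The 36 genes lie on 15 autosomes, with 8 on chromosome 2, 5 on chromosome 11, 2 on chromosome 1 and none on 8 or 14. In cells that gained 1 alone at time 2, 2 of the 36 genes were higher than in cells without a gain and 0 were lower. Among all genes tested the shares were 8.12% and 13.9%. The 2 genes were Cenpf and Nuf2, the 2 genes of the list on chromosome 1. Cenpf (chr1:189640606-189688086, minus strand, build GRCm38) stood at 272 CPM without a gain and 471 CPM with it, a log2 ratio of 0.79 (interval 0.78 to 0.81). Nuf2 (chr1:169497934-169531464, minus strand) stood at 22.7 and 30.6 CPM, a log2 ratio of 0.42 (0.39 to 0.48). The 364 chromosome 1 genes used for the comparison had a median log2 ratio of 0.41 and a middle 50% from 0.26 to 0.54. Nuf2 thus lay at their middle and Cenpf above 97.8% of them. The 364 genes also entered the gain calls, which the 36 genes did not, so their median depends in part on the call.

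The 118 cells of time 1 that gained 1 alone gave like values. Cenpf stood at 251 and 438 CPM (log2 0.80, interval 0.75 to 0.85) and Nuf2 at 21.5 and 31.6 CPM (log2 0.53, 0.36 to 0.74). The other 34 genes had a median log2 ratio of 0.083 at time 1, where Pttg1 was highest at 0.35, and of 0.072 at time 2. Within X-low cells the Cenpf ratio was 0.76 at time 1 (60 cells with the gain) and 0.51 at time 2, and the Nuf2 ratio 0.61 and 0.32. With a gain threshold of 1.4 the Cenpf ratio at time 2 was 0.54. Cells called without a gain at time 2 had a median chromosome 1 ratio of 1.07, above the 1.00 of time 1. Where 8 was gained along with 1, Cenpf and Nuf2 were again the 2 higher genes (log2 0.71 and 0.47, with 9.46% of all genes higher), and Birc5 was lower (log2 -0.32, with 15.9% of all genes lower). Within X-low cells these ratios were 0.41, 0.37 and -0.18, so Birc5 was not called there. Of the cells with 1 and 8, 0.79% were X-high, and of those with 1 and 14, 0.85%, against 59.3% without a gain. Single genes with 1 and 14 were not compared within X-low cells. Where 1 and 14 were gained, Bub1b (log2 0.37) joined Cenpf and Nuf2 (0.72 and 0.50), and Spc24 was lower (log2 -0.36), beside 14.7% and 15.7% of all genes. Where 1, 8 and 14 were gained, Cenpf and Nuf2 were higher (log2 0.69 and 0.48) and 0 genes lower, beside 13.6% and 15.6%. Where 8 alone was gained, 0 of the 36 passed in either direction at time 1 or time 2. The shares of all genes there were 7.65% higher and 12.8% lower at time 1, and 9.57% and 11.4% at time 2.

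Chromosome 11, gained alone by 86 cells of time 1 and 101 of time 2, carries 5 of the genes, and all 5 had log2 ratios above 0 in those cells at both times. Aurora B (Aurkb), the kinase that corrects wrong attachments, stood at 49.9 CPM without a gain and 73.6 with it at time 1, and at 42.4 and 61.0 at time 2. Its log2 ratios were 0.55 and 0.51. Top2a had log2 ratios of 0.42 and 0.57, Birc5 of 0.34 and 0.29, and Hmmr of 0.24 and 0.38. Pttg1 had 0.80 and 0.47. Hmmr at time 1 and Birc5 at time 2 were short of the 0.32 at which a gene was called higher. The chromosome 11 genes at large, which also entered the gain calls, had medians of 0.48 and 0.47. Their middle 50% lay between 0.32 and 0.62 at time 1 and between 0.32 and 0.60 at time 2, so ratios above 0 are not particular to the 5. The 31 genes of the list on other chromosomes had medians of -0.11 and -0.039. Some of these were as high as genes on chromosome 11: Espl1 had log2 ratios of 0.36 and 0.37, and Nuf2 of 0.39 at time 2. Of the cells that gained 11 alone at time 1, 13.95% were X-high, against 61.2% of those without a gain, a class in which Pttg1 was low. Within X-low cells of time 2 (62 with the gain) the 5 log2 ratios lay between 0.38 and 0.53.

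**Figure D4:**
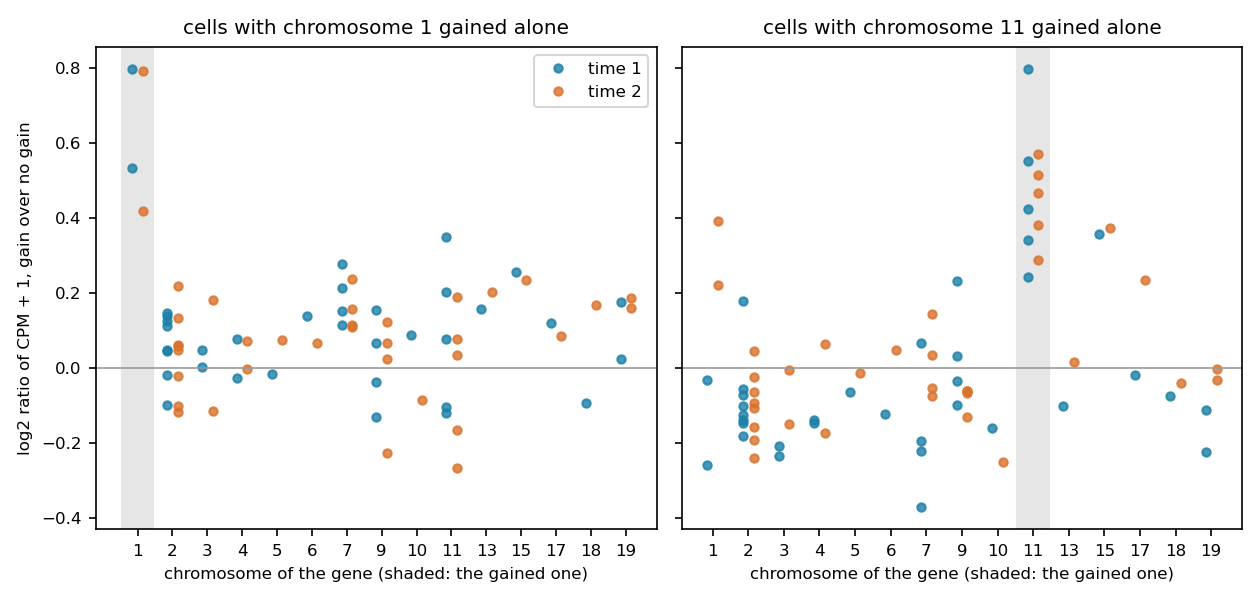
Log2 ratio of CPM plus 1 for each of the 36 genes, cells with chromosome 1 (left) or 11 (right) gained alone over cells without a gain, by the chromosome of the gene (x axis), at both times. The shaded columns hold the genes on the gained chromosome: Cenpf and Nuf2 on 1, and Aurkb, Birc5, Top2a, Pttg1 and Hmmr on 11.

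Each cell's share of X-linked UMIs, set against its autosomal UMIs, was divided by the median of Y-positive cells, those with at least 2 UMIs of the 4 Y genes. Cells without a Y UMI were X-high at 1.2 or above and X-low below it. Cells with 1 Y UMI were not classed (619 and 1120). At time 1, 4746 X-high and 2608 X-low cells had summed mitotic levels of 48.5 and 48.3, and 606 Y-positive cells 48.7. The log2 ratio of X-high over X-low was 0.0036 (interval -0.00074 to 0.0079). At time 2 the levels were 49.4 in 2857 X-high and 52.0 in 14013 X-low cells, a log2 ratio of -0.077. It was -0.010 within the Gm46332-led and -0.059 within the Jam2-led cluster. With TMM scaling the ratios were -0.056 and -0.19.

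At time 1, 0 of the 36 genes were higher in X-high than in X-low cells and 1 was lower, beside 13% of all genes higher and 8.05% lower. The gene was Pttg1, securin, which holds separase in check until anaphase. Pttg1 (chr11:43420250-43426251, minus strand) stood at 77.2 CPM in X-high cells (76.2 to 78.3), 121 in X-low cells (118.8 to 122) and 125 in Y-positive cells (121 to 128). The log2 ratio of X-high over X-low was -0.64 (-0.67 to -0.61). It was -0.67 within the Rhox9-led cluster and -0.67 among cells without a gain. At 10000 UMIs a Pttg1 UMI was found in 45.4% of X-high cells (exact interval 44.0 to 46.9%), 62.0% of X-low cells and 65.0% of Y-positive cells, and in 39.5% of fibroblast-like cells. Median depths were 51794, 46011, 52425 and 66718 UMIs.

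At time 2 the Pttg1 difference was small over all cells, with 99.3 CPM in X-high and 104 in X-low cells (log2 -0.069). It varied by cluster. The log2 ratio was -0.66 in the Jam2-led cluster, where 1946 cells were X-high and 68 X-low, and -0.29 in the Rhox9-led cluster. It was 0.054 in the Gm46332-led and 0.0011 in the Nanos3-led cluster, which held 194 and 304 X-high cells. The difference between clusters was not tested.

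At time 2, 0 of the 36 genes were higher in X-high cells and 3 were lower, beside 17.8% and 12.7% of all genes. These were Cenpf (253 against 424 CPM, log2 -0.74), Nuf2 (22.1 against 30.03 CPM, log2 -0.43) and Kif22 (55.1 against 69.7 CPM, log2 -0.33). Chromosome 1 was gained in 6.16% of X-high and 72.2% of X-low cells. Among cells without a gain the log2 ratios were -0.50 for Cenpf, -0.18 for Nuf2 and -0.35 for Kif22, and within the Rhox9-led cluster -0.22, -0.042 and -0.31. In the Gm46332-led, Nanos3-led and Jam2-led clusters the ratio of Cenpf was -0.30, -0.36 and -0.53, and that of Nuf2 -0.26, -0.24 and -0.22. Kif22 is encoded on chromosome 7. Its log2 ratio was -0.11 in the Gm46332-led, -0.14 in the Nanos3-led and -0.47 in the Jam2-led cluster. Cdk1 stood at 200.2 CPM in X-high against 165 in X-low cells at time 1, and at 192 against 165 at time 2 (log2 0.28 and 0.21). The ratios of Birc5 were 0.20 and 0.30. All 4 of these ratios were short of 0.32.

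**Figure D5:**
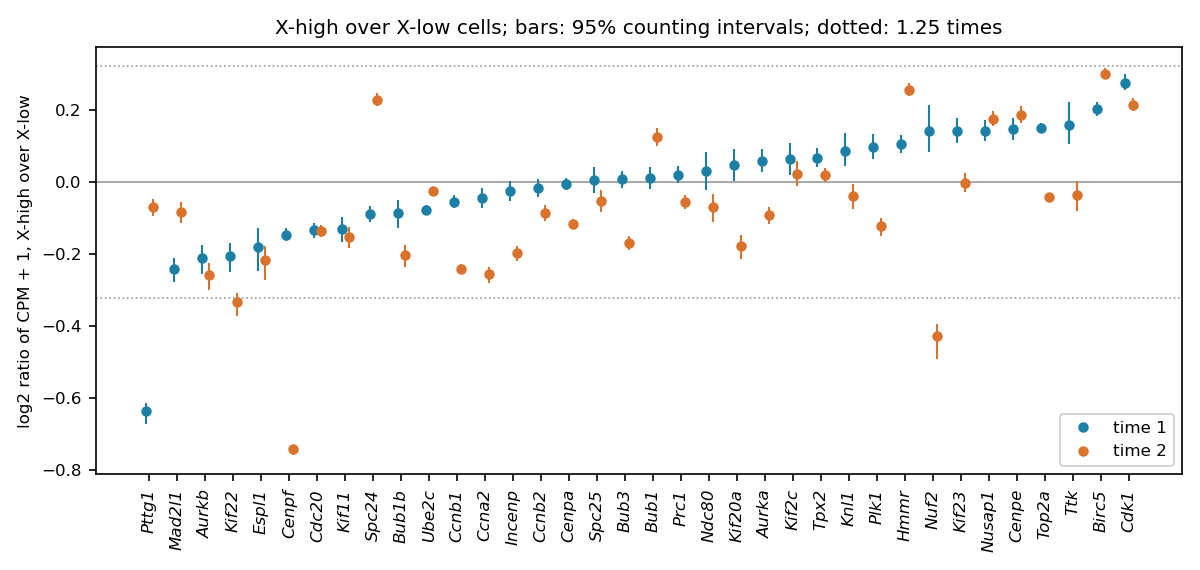
Log2 ratio of CPM plus 1, X-high over X-low cells, for each of the 36 genes (x axis, ordered by time 1) at both times, with 95% counting intervals. Pttg1 lies at -0.64 at time 1, and Cenpf and Nuf2 at -0.74 and -0.43 at time 2, outside the dotted lines at 0.32 on either side of 0.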

How the data were processed

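The values the authors deposited are raw UMI counts, whole numbers for each barcode and gene, from 10x version 3.1 chemistry per the labels' protocols, made with bcl2fastq 2.20.0.422 and Cell Ranger 6.1.2 per the submitters' processing notes, which name mm10 and GRCm38. Library totals were 1735810403 (time 1) and 1843588321 UMIs (time 2), over 145288 and 52242 barcodes. Of 32285 gene identifiers, 32158 matched GENCODE M21 (GRCm38), which gave coordinates.

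Barcodes were kept as cells from 18315 and 18646 UMIs upward, which is 0.1 times the value that 1% of the 20000 barcodes with most UMIs exceed, if they had 1000 or more genes and no more than 10% of UMIs from mitochondrial genes. The automatic threshold of Scrublet (scanpy 1.11.5) marked next to no cells. In its place a doublet score from simulated doublets was used, and about 10% of cells with the highest score were removed in each library (2591 and 3024), a share set after this was seen. Clustering used 2000 variable autosomal genes (6 of them members), 30 components, 15 neighbours and Leiden resolution 0.5 (igraph 0.11.9), giving 17 clusters. Naming from marker lists was partly a judgement. Chromosome ratios used 11241 autosomal and X dosage 401 X-linked genes. Ratios of single genes are log2 of CPM plus 1, and ratios of the summed level have nothing added. Intervals printed with single-gene ratios were computed without the added 1, so at low CPM they are not centred on the ratio. For Nuf2 with gain of 1 alone at time 2, the interval centred on the ratio was 0.37 to 0.47. Levels compared across classes used summed counts, with exact Poisson intervals for levels and exact Clopper-Pearson intervals for shares. Cells were thinned to 10000 UMIs for ranks and shares. Cutoffs of 0.32 on the log2 scale (times, gains and X classes), of 1.5 times (top against bottom 25%) and of 4 times (fibroblast-like cells) describe size and are no test.

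The genes named were the 36 members, the 10 highest and 5 lowest outside genes of the top against bottom comparison, and counts over fixed lists. Of the outside genes, 1 is not reported here. The members, lists, comparisons and the factor of 4 were chosen with earlier results of these data known. The steps were tested on simulated data. Alternatives covered doublets, depth, population, clustering, thresholds, pseudocount and TMM scaling (edgeR 4.0.16, R 4.3.3). Python 3.11.15, numpy 2.4.6, scipy 1.17.1 and pandas 2.3.3 were used.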

Additional observations from a re-analysis of the deposited data

Results flagged for a closer look

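For 7 of the 36 genes the log2 ratio of X-high over X-low cells pointed one way at time 1 and the other way at time 2, with counting intervals that left out 0 both times. The same held for 12.6% of the 6900 genes tested at both times. Counting intervals are narrow at this depth, and nothing particular to the list is read from the count. The difference between the times was not tested, since each time is 1 library. Nuf2 had a ratio of 0.14 at time 1 and -0.43 at time 2, Knl1, the scaffold that recruits BUB proteins, 0.088 and -0.039, and Spc24 -0.088 and 0.23. Of the kinases, Aurka had 0.060 and -0.091 and Plk1 0.098 and -0.12. The midzone motor Kif20a had 0.047 and -0.18, and Top2a 0.15 and -0.041. At time 2 chromosome 1, which carries Nuf2, was gained in 6.16% of X-high and 72.2% of X-low cells. In cells without a gain, Knl1 kept 1 sign, at 0.091 and 0.070, and Kif20a had -0.0028 and -0.16, while the values of Plk1 (0.14 and -0.062), Nuf2 (0.18 and -0.18), Spc24 (-0.090 and 0.13), Aurka (0.072 and -0.13) and Top2a (0.19 and -0.018) had opposite signs. Within the Rhox9-led cluster, with 413 X-high and 234 X-low cells at time 2, Aurka (0.079 and 0.083), Kif20a (0.030 and 0.050) and Top2a (0.18 and 0.0090) kept 1 sign. Nuf2 (0.20 and -0.042), Plk1 (0.049 and -0.11), Spc24 (-0.14 and 0.011) and Knl1 (0.11 and -0.050) had values of opposite sign there. Small ones among these values, such as 0.011 and -0.018, are given without intervals and are not read as a change of sign.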

How the results depend on the processing

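Values are log2 ratios of the summed level unless a gene or count is named, and the cause of each change was not tested unless the setting itself states it. No paired analysis was possible because each time has 1 library and so no replicates. With doublets kept, time 2 over time 1 was 0.089, fibroblast-like over pluripotent -2.10 (time 1) and -1.69 (time 2), X-high over X-low 0.0081 and -0.067, and at time 2 gain of 1 alone 0.080, of 8 alone 0.0068 and of 1 and 14 0.053, with Cenpf 0.71 and Nuf2 0.36 for chromosome 1. With 5000 UMIs per cell or more, X-high over X-low at time 1 was 0.012. With the primed epiblast-like cluster added, time 2 over time 1 was 0.11 with 3 genes higher, X-high over X-low 0.034 at time 1, gain of 8 alone 0.021 and 0.019, of 1 and 8 0.047, of 1 and 14 0.067, and Cenpf 0.81. Without Top2a, time 2 over time 1 was 0.084, fibroblast-like over pluripotent -2.69 and -1.80, X-high over X-low -0.014 and -0.081, gain of 8 alone 0.019, of 1 and 8 0.048 and of 1 and 14 0.053. With CPM plus 5, 3 genes were higher at time 2. With a gain threshold of 1.2, gain of 8 alone was 0.0058 and 0.039, of 1 alone 0.093, of 1 and 8 0.067, of 1 and 14 0.087, and Cenpf 0.88. With 1.4, gain of 8 alone turned to -0.020 and -0.019, 1 alone was 0.072, 1 and 8 0.028, 1 and 14 0.066, Cenpf 0.54 and Nuf2 0.35. With the 36 genes kept in the chromosome ratio, which uses the outcome, gain of 1 alone was 0.0999, of 8 alone 0.0075, of 1 and 8 0.021, and Cenpf 0.81. With an X threshold of 1.4, X-high over X-low was 0.013 and -0.083. With TMM scaling, time 2 over time 1 was 0.24 with 11 genes higher, beside 28.4% of all genes, which this scaling moved alike.

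The following alternatives were chosen after seeing the data. With TMM scaling between classes, fibroblast-like over pluripotent was -3.06 and -2.17, X-high over X-low -0.056 and -0.19, gain of 8 alone 0.076 and 0.045, of 1 alone 0.17, of 1 and 8 0.13, of 1 and 14 0.14, Cenpf 0.87 and Nuf2 0.49. TMM moved every gene by 0.14 between times, and by -0.32 to 0.096 between classes. With 20% of cells removed as doublets, time 2 over time 1 was 0.096, and with the primed epiblast-like and Id1-led clusters added 0.096 with 3 genes higher. It was 0.047 within the Rhox9-led and turned to -0.0080 within the Jam2-led cluster. In cells without a gain, X-high over X-low was 0.011 at time 1. Within X-low cells of time 2, gain of 8 alone turned to -0.028 and of 1 and 8 to -0.013, while 1 alone was 0.040, 1 and 14 0.010, Cenpf 0.51 and Nuf2 0.32. Without Cenpf and Nuf2, gain of 1 and 8 turned to -0.015, and 1 alone was 0.034, 8 alone 0.00057 and 1 and 14 0.0093.

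Of 133 such values, 57 moved by less than their counting interval, or for a count by less than 1.5 times, 70 moved by more and 6 turned from a value whose interval left out 0 to the other sign. Among the 70, X-high over X-low at time 1, whose interval included 0, also changed sign without Top2a and with TMM scaling. Clusters built without the 36 genes and the replication genes left the 10 values recomputed with them among the 57. Lists of single genes were recomputed too, with 700 values within and 376 beyond their intervals. Counting error is small at these depths, and 1 library per time leaves the spread between cultures unmeasured.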

Other observations

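A cluster of 67 cells of time 1, led by Card19, had a median of 352321 UMIs. Its summed level was 34.5 UMIs per 10000. The 5 genes given here were chosen after their values were seen and do not stand for the list. Knl1 stood at 4.21 CPM in it, against 42.2 in pluripotent stem cell-like cells, Cenpf at 40.5 against 256, and Top2a at 105 against 514. Pttg1 stood at 194 CPM against 94.8 and Ube2c at 660 against 483, so these 2 genes were above and the first 3 below the pluripotent level. The Rpgrip1-led cluster, 2257 cells of time 1 and 1 of time 2, had values between these for each of the 5 genes: Knl1 17.96, Cenpf 133, Top2a 253, Pttg1 127 and Ube2c 549 CPM. What sets these clusters apart was not tested.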
